A study of Mus musculus with 4 samples.

Results

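Arterial endothelium is the lining of the arteries and arterioles that bring blood into the gland. Here it means the endothelial cells that carried transcripts of the artery genes Sema3g, Gja4 or Gja5, and 2753 of 39843 cells met that rule. A cell was kept with at least 500 UMIs (unique molecular identifiers, the tags that count captured transcripts), at least 300 detected genes and no more than 15% mitochondrial UMIs. It counted as endothelial with at least 4 UMIs of Pecam1, Cdh5, Egfl7 and Cldn5 together and none of Ptprc, Pdgfra or Prox1, which mark leukocytes, fibroblasts and lymphatic vessels. Among 19527 such cells, an arterial cell had no UMI of the vein genes Selp and Ackr1 and at least 2 UMIs of Sema3g, Gja4 and Gja5 together, called gate UMIs below. Capillary-type cells, used for comparison, had no UMI of either set (13686 cells), and venous cells had at least 2 UMIs of Selp and Ackr1 and no gate UMI (415 cells).

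The cells came from submandibular salivary glands of female mice of the C57BL6/J strain. After enzymatic digestion, epithelium (EpCAM) and red cells (Ter119) were removed on magnetic beads and dead cells were taken out. In the ligated group a metal clip closed the main ducts of both the sublingual and the submandibular gland for 14 days, and in the mock group the ducts were exposed and no clip was placed. The single ligated library (n = 1) held 746 arterial cells, and the 3 mock libraries, numbered 1, 2 and 3, held 403, 685 and 919. The labels give no age and do not say whether a library holds 1 animal or several.

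Arteries differ from capillaries and veins by a transcription program that Notch signalling and SoxF factors help to set up before and after blood flow begins. Their endothelium is coupled by gap junctions, sits on an elastic wall and controls the tone of the smooth muscle around it through endothelin, nitric oxide and hyperpolarising signals. In salivary glands the arteries run with the ducts into the lobules and supply a dense capillary bed around the acini that make saliva.

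Arterial cells held 4082250, 2763102, 4029692 and 5137369 UMIs (ligated, then mock 1, 2 and 3), at medians of 4475, 5860, 4906 and 4591 UMIs per cell. Levels below are CPM, the UMIs of a gene scaled to a sum of 1000000 UMIs over these cells. The ligated library and mock 1 were made with Cell Ranger 6.0.1 per the file headers, and the other mock libraries with 7.0.0. In arterial cells the chi-square between mock 2 and mock 3, divided by its degrees of freedom, was 2.54, against 22.2 to 30.6 for the other pairs, and whether these 2 libraries are separate animals was not tested. Between 11 and 61 barcodes were shared by a pair of libraries. P-values therefore measure only the spread between these libraries, which may be technical.

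To show the genes that define the cells, the 250 bases before the start of 4 of them are printed from RefSeq (GRCm38.p6), 5′ to 3′ on the gene's strand. Sema3g, Gja4 and Gja5 set the gate, and Fbln5 led the genes outside it. Capitals mark 3 short letter runs on either strand: TGGGAA, the core bound by the Notch partner RBPJ, ACAAT, the core bound by SOX factors, and CAGGAA, a core bound by ETS factors. Each window is given with its position and strand.
Sema3g, chr14:31217623-31217872, plus strand: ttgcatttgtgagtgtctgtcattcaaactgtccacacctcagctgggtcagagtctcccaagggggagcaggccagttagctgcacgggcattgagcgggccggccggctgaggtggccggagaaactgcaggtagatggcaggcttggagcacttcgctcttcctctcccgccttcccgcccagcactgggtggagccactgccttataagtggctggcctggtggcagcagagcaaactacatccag
Gja4, chr4:127314040-127314289, minus strand: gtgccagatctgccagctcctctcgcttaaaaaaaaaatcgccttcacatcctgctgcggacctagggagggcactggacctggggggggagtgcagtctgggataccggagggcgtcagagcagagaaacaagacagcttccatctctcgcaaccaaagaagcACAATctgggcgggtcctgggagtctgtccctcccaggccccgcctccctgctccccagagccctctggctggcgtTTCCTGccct
Gja5, chr3:97032152-97032401, plus strand: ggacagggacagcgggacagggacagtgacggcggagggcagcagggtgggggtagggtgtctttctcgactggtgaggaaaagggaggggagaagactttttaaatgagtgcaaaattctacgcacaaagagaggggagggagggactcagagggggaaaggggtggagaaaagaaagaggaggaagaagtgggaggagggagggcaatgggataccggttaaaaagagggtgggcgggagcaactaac
Fbln5, chr12:101819120-101819369, minus strand: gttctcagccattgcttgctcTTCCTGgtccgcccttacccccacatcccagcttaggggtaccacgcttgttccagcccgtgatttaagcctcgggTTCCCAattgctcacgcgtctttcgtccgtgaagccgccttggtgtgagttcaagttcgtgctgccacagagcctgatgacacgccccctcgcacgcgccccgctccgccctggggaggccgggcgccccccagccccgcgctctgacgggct

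The windows of Sema3g and Gja5 held none of the 3 runs, that of Gja4 held ACAAT and CAGGAA, and that of Fbln5 held TGGGAA and CAGGAA. Apart from ACAAT, these matches were on the opposite strand, so that they print as TTCCCA and TTCCTG. Another RefSeq window of Fbln5 (chr12:101818485-101818734), not printed, held CAGGAA on the gene's strand and no TGGGAA. Of 32851 such windows in the RefSeq table, 21.6% held TGGGAA, 27.7% ACAAT and 25.7% CAGGAA. Among the 10 of the 12 leading arterial genes (below) with a window in the table, 4, 3 and 4 held the respective run in at least 1 of their windows. The percentages are per window and these counts per gene, so the units differ and a gene with several windows matches more easily. Nebl, which had several windows, was in all 3 counts. A match describes the letters and is not a binding site.

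The artery genes stood far higher in arterial than in capillary-type cells, also where the gate had not used them. For Sema3g, Gja4 and Gja5 this follows from the rule, so each was read in endothelial cells chosen by the others. Gja5, a gap junction connexin of arteries, stood at 40.5, 61.3, 92.2 and 87.5 CPM in the ligated library and mock 1, 2 and 3 where Sema3g and Gja4 together had 2 or more UMIs, and at 0.746 to 1.25 CPM where they had none. Gja4, another connexin, stood at 400 to 637 CPM against 43.7 to 71.2 in the same kind of reading, and the secreted semaphorin Sema3g at 301 to 323 against 11.7 to 21.96. In all 4 libraries the levels in cells chosen by the other genes lay above those in cells without them.

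Of the markers outside the gate, Fbln5 (chromosome 12, 101746565 to 101819055, GRCm38), a fibulin of elastic fibres, stood at 370, 354, 398 and 412 CPM in arterial cells and at 1.57 to 8.21 CPM in capillary-type cells. Stmn2, a microtubule-binding protein best known from neurons, stood at 365, 324, 473 and 514 CPM against 8.23 to 11.1. Hey1, a Notch target and transcription factor, stood at 87.0, 130, 123 and 124 CPM against 8.04 to 11.3, and at 0 to 3.00 in venous cells. All 6 marker genes were detected in every library. For Sema3g and Gja4 the level follows from the rule, so the name is read from Fbln5, Stmn2 and Hey1. Stmn2 set arterial cells apart from venous cells less sharply. A UMI was found in 14.7 to 25.0% of venous cells against 43.4 to 51.5% of arterial and 1.99 to 3.70% of capillary-type cells. For Fbln5 the shares were 4.55 to 9.09% of venous and 42.2 to 51.7% of arterial cells. Mecom, a transcription factor, is less clear cut: its arterial levels of 304, 273, 820 and 826 CPM were low in the ligated library and mock 1 and high in mock 2 and 3, which also differ in software version, and venous cells carried 144 to 475 CPM.

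As a description, the 12 genes whose lowest arterial over capillary-type ratio among the 4 libraries was highest were Gja4, Sema3g, Fbln5, Stmn2, Col8a1, Edn1, Pcsk5, St8sia6, Nebl, Glul, Fn1 and Acta2. Edn1, the precursor of the vasoconstrictor endothelin, stood at 95.05 to 629 CPM in arterial and 3.76 to 8.35 in capillary-type cells. Glul, which makes glutamine, stood at 507 to 886 against 61.4 to 121 CPM, and Fn1, fibronectin, at 107 to 221 against 4.32 to 7.32. Pcsk5 and Nebl, like Mecom, lay at 68.0 to 82.5 CPM in the ligated library and mock 1 and at 192 to 223 in mock 2 and 3. Acta2, the actin of smooth muscle, is not an endothelial gene, and 7.74 to 11.7% of arterial cells carried at least 3 UMIs of the mural marker list. The gene lowest in arterial cells by the same measure was Aplnr, the apelin receptor, at 60.02, 26.1, 28.0 and 19.3 CPM against 127 to 293 in capillary-type cells.

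Arterial markers stood higher in cells with more gate UMIs, as a description, since the steps are the rule's own values. Whether cells of distinct kinds mix at the low steps was not tested, and the median depth was also higher at the top step (5690 UMIs against 3461 in the ligated library). From cells with no gate UMI to cells with 7 or more, Fbln5 went from 1.57 to 8.21 up to 662 to 753 CPM over the libraries, and the arterial transcription factor Sox17 from 81.8 to 84.7 up to 621 to 745. The capillary enzyme Car4 (carbonic anhydrase) went the other way, from 243 to 643 down to 48.7 to 73.6 CPM. Just inside the threshold, cells with exactly 2 gate UMIs (27.6 to 32.6% of the arterial cells) carried 46.8 to 117 CPM of Fbln5 and 300 to 523 of Car4. Just outside it, cells with 1 gate UMI carried 23.8 to 37.6 CPM of Fbln5 and 308 to 734 of Car4. Other capillary transcripts remained at the top step: Gpihbp1, which carries lipoprotein lipase in capillaries, stood there at 414 to 723 CPM and Rgcc at 534 to 764. The plot of levels by gate UMIs shows these values.

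Transcripts of other cell types were unevenly spread over the libraries and accompany the comparisons that follow. The 8 fibroblast markers summed to 190 CPM in ligated arterial cells against 42.0 to 69.1 in mock, with Pdgfra at 0 by the gate. The 10 T, NK and ILC markers summed to 85.5 CPM against 4.47 to 14.5, with Ptprc at 0 by the gate. The 10 macrophage, monocyte and dendritic markers summed to 146 CPM against 8.76 to 14.9, with Cd209a at 0 in every library. The erythroid list ran the other way, at 1290 against 5392 to 11933 CPM. Mural markers, at 1192 against 1016 to 1318 CPM, and epithelial markers, at 208 against 61.5 to 642, lay within the mock range. Glia markers stood at 27.4 CPM against 4.48 to 6.95, and venous markers, with Selp and Ackr1 at 0 by the gate, at 145 against 80.6 to 90.8. Fat cell markers were at 0 in 3 libraries and at 0.195 CPM in mock 3. Beyond the comparisons without such cells in the closing section, the part of these transcripts in the results was not tested. Capillary endothelial markers, which no gate excluded, were not part of those comparisons. The 7 of them summed to 9292 CPM in ligated arterial cells against 12774 to 19185 in mock. The 6 arterial markers summed to 2016 against 1806 to 2739. At least 3 capillary marker UMIs were found in 95.8 to 98.9% of arterial cells.

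Arterial cells made up a larger share of endothelial cells in the ligated library than in any mock library. They were 19.5% of its 3832 endothelial cells (exact binomial 95% interval 18.2 to 20.8%) against 15.3% of 2635, 12.4% of 5516 and 12.2% of 7544 in mock 1, 2 and 3, a ratio of 1.46 to the mock mean of 13.3% ± 1.73 (SD, n = 3). The intervals cover counting error only, and an exact permutation test of 1 library against 3 cannot give a p under 0.25. Over all cells the order was reversed: arterial cells were 5.61% of the ligated library and 8.78, 7.40 and 7.24% of the mock libraries, in which endothelial cells as a whole were 57.4 to 59.6% of cells against 28.8%. The bead depletion removed cells from the second denominator, and its part in the reversed order was not tested. Of the genes that define endothelial cells here, Cldn5 stood far higher in arterial than in capillary-type cells, and with 2 in place of 4 UMIs asked of those genes the ratio was 1.44.

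Because a deeper cell passes the gate more easily, every cell was also thinned to 2000 UMIs, which left out 58, 14, 27 and 69 arterial cells that were shallower. The share was then 11.9% against 7.29, 7.40 and 7.56%, and the 3 mock libraries lay close together. By genes outside the gate the ligated library was again the highest: endothelial cells with 2 or more UMIs of Fbln5 and Stmn2 together were 11.7% against 8.62, 7.96 and 7.79%, and 8.59% against 6.21, 5.76 and 6.31% after thinning. Each gate gene was also read alone, as a description. Cells with 2 or more Gja4 UMIs were 14.5% of ligated endothelial cells against 8.74 to 9.91% in mock, and 7.18% against 2.87 to 4.02% after thinning. Cells with 2 or more Sema3g UMIs were 8.40% against 5.05 to 7.89%, and 4.02% against 2.31 to 3.66% after thinning. Cells with any Gja5 UMI were 3.89% against 3.83 to 4.13%, inside the mock range, and after thinning 2.36% against 1.71, 2.28 and 2.09%, above it. Lymphocytes carried a Gja4 UMI in 1.90% of ligated cells against 1.28, 0.627 and 0.569% in mock 1, 2 and 3. For Fbln5 the lymphocyte shares were 1.51% against 0.638, 0.251 and 0.163%. Those of Stmn2, Sema3g and Gja5 lay within the mock range. The part of this background in the arterial share was not tested.

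**Figure D1:**
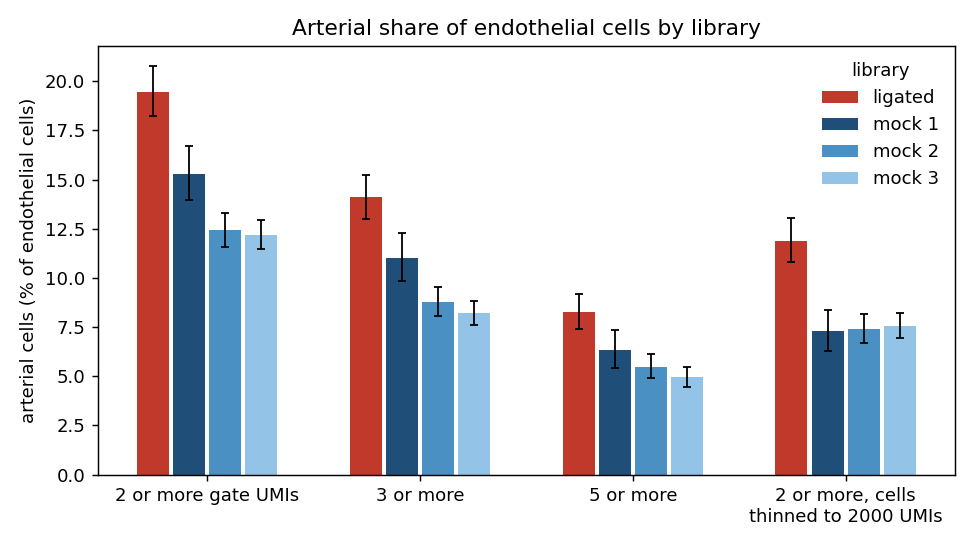
Arterial cells as a percentage of endothelial cells (vertical axis, from 0) in each library, with the gate at 2, 3 or 5 UMIs and after thinning each cell to 2000 UMIs. Error bars are exact binomial 95% intervals, and the ligated bar was the highest in each set, at 19.5, 14.1, 8.25 and 11.9%.

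Arterial cells of the ligated library were then compared with those of the mock libraries, gene by gene, to ask what 14 days of duct obstruction does to the arteries of the gland. By edgeR's quasi-likelihood test on the summed UMIs, 0 of 11781 genes passed an adjusted p of 0.05 in either direction, and the smallest adjusted p was 0.107 for Aqp1. Only the mock libraries give this test a spread, which leaves it 2 residual degrees of freedom. Without adjustment, 826 genes (7.01%) had a p under 0.05. DESeq2 called 35 genes higher and 29 lower. Without mock 1, edgeR called 2026 higher and 2471 lower on 1 residual degree of freedom, since the spread then came from mock 2 against mock 3 alone, while leaving out mock 2 gave 0 and 0 and leaving out mock 3 gave 4 and 1. The ligated value lay above all 3 mock libraries for 3234 genes (27.5%) and below all 3 for 3156 (26.8%) after TMM scaling. On plain CPM, the scale of the printed levels, the counts were 3691 and 2751. Counts of list members use the TMM scale and are read against its shares. The verbs below therefore give positions of levels, and fold changes carry edgeR's standard error. For bulk sums like these, fewer cells with a transcript and less of it per cell cannot be told apart, and shares of cells are given where they help. Unless stated, the values are in the order ligated, then mock 1, 2 and 3.

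Aqp1 (ENSMUSG00000004655, chromosome 6, 55336432 to 55348555), the water channel of many endothelia, stood furthest above mock among the 12 genes named in that direction. Its level was 615 against 61.9, 60.1 and 54.7 CPM, a log2 fold change of 3.34 ± 0.17 (SE; edgeR adjusted p = 0.107). That the groups did not overlap was a condition for naming the 12 genes. For Aqp1, 77.1% of ligated arterial cells carried a UMI against 21.1, 19.4 and 19.5%. Among lymphocytes, which should lack it, 4.80% did against 0.125 to 0.426%, at median depths of 4673 and 5472 to 6501 UMIs. Capillary-type cells showed a gap of like size, 660 against 100.0, 57.2 and 52.5 CPM, and the difference between the 2 responses was 0.11 ± 0.17 on the log2 scale (edgeR adjusted p = 0.902), an estimate that does not show the responses to be equal. In venous cells Aqp1 was high in all libraries, at 2187 against 1569, 807 and 781 CPM.

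Trp53i11 (chromosome 2, 93187548 to 93201759), a gene named for its induction by Trp53, stood at 139 against 27.1, 28.5 and 29.6 CPM, with a log2 fold change of 2.24 ± 0.16 (edgeR adjusted p = 0.123). It was carried by 30.8% of ligated arterial cells against 11.8 to 14.1%, with 16.3% of ligated lymphocytes and 10.7 to 21.7% of mock lymphocytes carrying a UMI. Lymphocytes thus carried this gene at shares far above those of Aqp1, and they give no background level for it. Within the gate the level of Trp53i11 declined from 211 CPM in ligated cells with 2 or 3 gate UMIs to 52.0 in those with 7 or more, where mock cells stood at 11.2 to 24.2. Among arterial cells the gap in CPM was therefore widest near the threshold of the gate. The gap was not particular to arterial cells. A UMI was found in 64.2% of ligated capillary-type cells against 24.5 to 32.0% in mock. In venous cells the shares were 49.6% against 6.82 to 29.4%.

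Those 12 genes, chosen by the smallest p among genes outside the mock range, included 4 transcription factors. Sox4, a SoxC factor, stood at 129 against 48.1, 56.8 and 52.0 CPM, a log2 fold change of 1.26 ± 0.17 (edgeR adjusted p = 0.426). Ets2, an ETS factor, stood at 266 against 109, 117 and 99.5 CPM (1.25 ± 0.18), and Bcl6b, a transcriptional repressor, at 65.7 against 24.3, 31.8 and 27.8 CPM (1.19 ± 0.21). Each of the 3 lay above all mock libraries, which the choice required. Fosb, an AP-1 subunit of the immediate early response, stood at 244 against 77.5, 44.7 and 46.3 CPM.

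The other genes in that direction were more varied in kind. Igfbp4, which binds insulin-like growth factors, stood at 252 against 78.9, 108 and 104 CPM, a log2 fold change of 1.34 ± 0.22 (edgeR adjusted p = 0.445). Fibroblasts carried it at 1679 CPM, and the fibroblast markers were higher in ligated arterial cells, as given above. Sema6d, a membrane-bound semaphorin, stood at 170 against 65.6 to 80.7 CPM, Prnp, the prion protein, at 136 against 56.2 to 62.6, and the phosphatase Ptp4a3 at 242 against 104 to 121. Rnf10, a ring finger protein, stood at 125 against 46.7 to 61.9 CPM. The mitochondrially encoded mt-Nd1, a subunit of complex I, stood at 1827 against 797 to 959 CPM, beside a median mitochondrial share of 3.07% in ligated arterial cells and 2.12 to 2.21% in mock.

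The 12 lower genes were chosen by the smallest p among genes outside the mock range. Among them were Tgfb2 and Smad6 of the TGF-beta and BMP list and Ltbp1 of the elastic fibre list. Tgfb2 (chromosome 1, 186622792 to 186705989), a TGF-beta ligand, stood at 150 against 333, 332 and 376 CPM, a log2 fold change of -1.25 ± 0.20 (edgeR adjusted p = 0.445). Smad6, an inhibitor of BMP signalling and itself a BMP target, stood at 25.2 against 83.6, 69.98 and 73.2 CPM (-1.62 ± 0.23), and Ltbp1, which holds TGF-beta in the matrix, at 20.3 against 49.6, 64.5 and 57.0 CPM (-1.53 ± 0.25). The ligated library was the lowest of the 4 for each, which the choice of these genes required. Both Tgfb2 and Smad6 climbed with the gate UMIs in mock cells, Smad6 from 32.0 to 58.8 up to 79.9 to 125 CPM, whereas ligated cells stood at 21.9 and 25.2 CPM of Smad6 at the ends of that range.

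Esm1 (chromosome 13, 113209659 to 113218098), a secreted proteoglycan that VEGF induces in endothelium, stood at 86.2 against 270, 412 and 337 CPM, a log2 fold change of -2.02 ± 0.32 (edgeR adjusted p = 0.445). A UMI was found in 20.4% of ligated arterial cells against 52.1, 49.5 and 47.8%, and in 0.303 to 0.638% of lymphocytes. Esm1 peaked in mock cells near the threshold of the gate, as the plot of levels by gate UMIs shows, and was low at every step in the ligated library.

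Aqp7, C1qtnf9 and Ddah1 also stood low. Aqp7, which passes water and glycerol, was at 6.86 against 58.3, 45.4 and 48.1 CPM, a log2 fold change of -2.92 ± 0.30 (edgeR adjusted p = 0.278). C1qtnf9, a secreted relative of adiponectin, was at 21.6 against 76.4, 77.4 and 83.1 CPM (-1.91 ± 0.20), and Ddah1, which breaks down an inhibitor of nitric oxide synthase, at 25.5 against 89.7, 71.0 and 73.6 (-1.65 ± 0.25). The 3 genes showed no overlap of the groups, again a condition of the choice. Kank4, an adhesion adaptor, was at 4.16 against 39.9 to 59.0 CPM, and Vwa3a at 9.06 against 34.3 to 39.0. Spag7 and the membrane protein Myadm were at 26.7 against 66.9 to 77.2 and at 51.0 against 102 to 107 CPM. Hbb-bt, a haemoglobin chain, was at 32.8 against 507 to 912 CPM. It is an erythroid gene, and without the cells that carried 3 or more UMIs of another cell type's list its log2 fold change turned to 0.46.

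**Figure D2:**
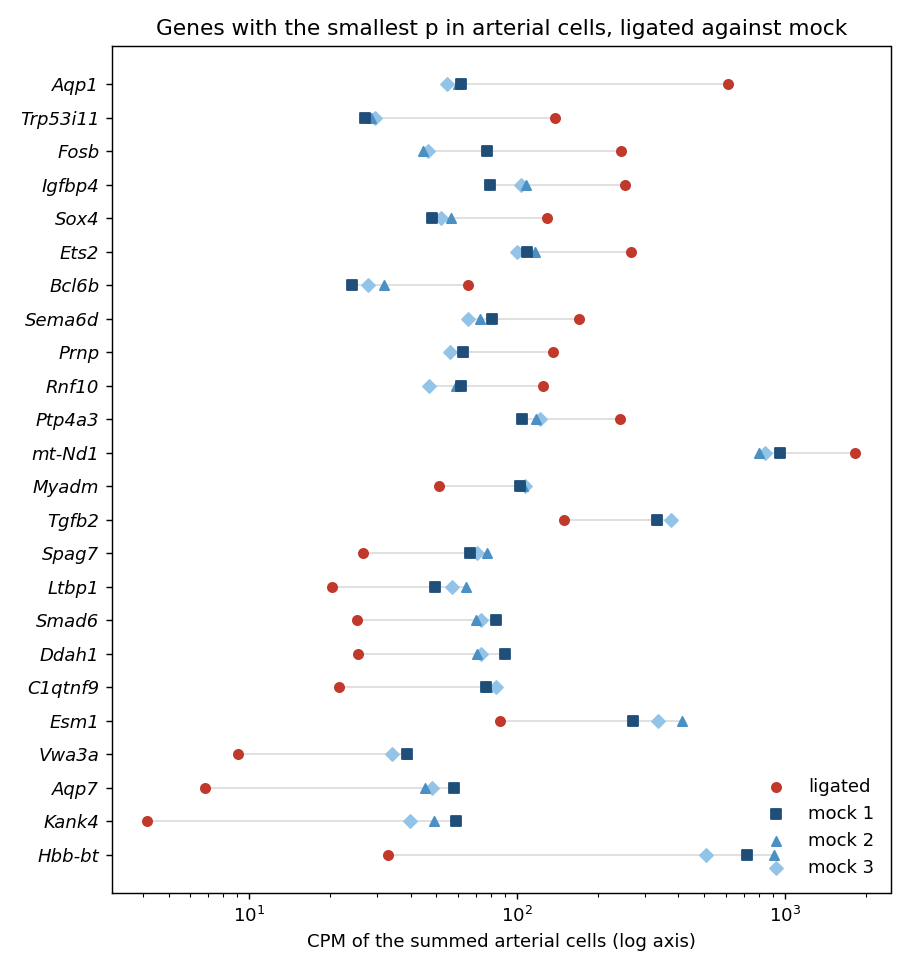
CPM on a log axis (horizontal) of the 12 higher and 12 lower genes with the smallest p in arterial cells, 1 point for each library, ordered by log2 fold change. Ligated points lie to the right of all mock points from Aqp1 (615 CPM against 54.7 to 61.9) to mt-Nd1 and to the left from Myadm to Hbb-bt. A level outside the mock range was a condition of the choice, and no gene passed edgeR's adjusted threshold.

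Genes of arterial identity lay on both sides of mock. Of 30 members, 6 stood above the range of the mock libraries and 10 stood below it. Their median log2 fold change was -0.19 against -0.02 for all genes tested. Against mock 1 alone it was 0.04 against 0.06, and 3 of the 30 are gate genes. Sema3g, at 334 against 353, 337 and 330 CPM, is counted below only after TMM scaling, and Gja4 stood at 556 against 371, 510 and 533. Gja5 stood at 43.9 against 63.7, 94.3 and 92.9 CPM, with a UMI in 18.6% of ligated arterial cells against 23.8 to 31.4%. These 3 set the gate and carry no test. Fbln5 and Stmn2 lay within the mock range.

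Hey1 stood at 87.0 against 130, 123 and 124 CPM, a log2 fold change of -0.57 ± 0.18 (edgeR adjusted p = 0.678), and the share of arterial cells with a Hey1 UMI was 29.8% against 40.5 to 46.4%. The kinase gene Bmx was at 47.0 against 69.7 to 76.0 CPM and the phosphatase gene Ptprr at 147 against 201, 281 and 307. For Ptprr, mock 1, which shares the ligated library's software version, was the lowest mock library. Above the mock range lay Igfbp3, an insulin-like growth factor binding protein, at 1779 against 844 to 968 CPM, with a log2 fold change of 0.90 ± 0.18 (edgeR adjusted p = 0.523). Clu, the chaperone clusterin, was at 587 against 348 to 399 CPM, and Cytl1, a small secreted protein, at 68.6 against 36.9, 23.6 and 16.7. Few cells carried a Cytl1 UMI, 5.90% of ligated and 1.61 to 2.98% of mock arterial cells, beside 0 to 0.130% of lymphocytes.

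The Notch pathway, which upholds arterial fate, had 5 of 27 members above and 9 below the mock range (median -0.10). The receptors Notch1, at 288 against 353, 276 and 272 CPM, and Notch4, at 143 against 176, 125 and 126, lay within it, as did the ligands Dll4, Jag1 and Jag2. Mfng, which adds sugars to Notch receptors, was at 62.7 against 23.2, 30.8 and 29.8 CPM, a log2 fold change of 1.12 ± 0.22 (edgeR adjusted p = 0.523). The coactivator gene Maml2, at 37.2 against 51.4, 355 and 342 CPM, stood low in the ligated library and mock 1 and high in mock 2 and mock 3. The SoxF factor gene Sox18 had the same pattern, at 168 against 190, 1278 and 1218. Of 37 endothelial transcription factors, 9 lay above and 13 below (median 0.04).

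In the list of shear stress and vasomotor control, 9 of 29 members stood above all mock libraries and 5 below them (median 0.16, and -0.14 against mock 1). Of these, Pecam1 and Gja4 above and Cdh5 and Gja5 below are gate genes, whose values the rule used. Edn1 stood at 95.05 against 629, 239 and 272 CPM, a log2 fold change of -2.05 ± 0.72 (edgeR adjusted p = 0.684), and its UMIs were found in 19.7% of ligated arterial cells against 48.6, 41.3 and 44.9%, beside 0 to 0.426% of lymphocytes. Mock 1 stood above the other mock libraries, and the ligated level lay below all 3. Ednrb, an endothelin receptor, was at 369 against 224, 131 and 121 CPM (1.18 ± 0.39), and Calcrl, the receptor subunit for adrenomedullin, at 121 against 202, 226 and 199 (-0.83 ± 0.19). The flow-responsive factors Klf2, at 1401 against 1448, 869 and 952 CPM, and Klf4 lay within the mock range.

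TGF-beta and BMP genes lay below the mock range in 18 of 30 members and above it in 6, with a median of -0.40, and -0.36 against mock 1 alone. Among ligands, Bmp6 stood at 9.80 against 60.8, 112 and 128 CPM, a log2 fold change of -3.40 ± 0.57 (edgeR adjusted p = 0.445), with a UMI in 4.56% of ligated arterial cells against 24.1 to 30.8% and in 0 to 0.501% of lymphocytes. Inhbb, a subunit of activin, was at 57.3 against 31.9, 17.6 and 14.8 CPM (1.40 ± 0.45). Among receptors, Bmpr2 was at 425 against 699, 518 and 547 CPM and Acvrl1 at 295 against 412, 345 and 368. The BMP target Id1 stood at 766 against 1353, 1022 and 1066 CPM and Id3 at 1645 against 1819 to 1936, with Smad6 as above. The inhibitor Smad7 lay within the range. Of the 30 members, 4 were carried by another cell class at over 20 times the arterial level.

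Capillary and fatty acid genes lay below the mock range in 14 of 23 members and above it in 3, with a median of -0.63 and -0.88 against mock 1. Fabp4, a fatty acid carrier, stood at 5247 against 11597, 8322 and 8546 CPM, a log2 fold change of -0.90 ± 0.29 (edgeR adjusted p = 0.684). Rgcc was at 777 against 1813, 1389 and 1252 CPM, the fatty acid receptor Cd36 at 516 against 982, 1063 and 1056, and Pparg, the lipid-sensing nuclear receptor, at 19.4 against 44.5, 57.1 and 59.2. Within arterial cells the distance from mock was smallest at the arterial end for Rgcc: 534 against 694 to 764 CPM in cells with 7 or more gate UMIs and 983 against 1819 to 2626 in those with 2 or 3.

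For the wall itself, 7 of 15 elastic fibre genes lay above and 3 below the mock range (median 0.55, and 0.07 against mock 1), and 4 of the 15 are mainly carried by another class. Fbln2 stood at 1015 against 718, 647 and 649 CPM, a log2 fold change of 0.55 ± 0.18 (edgeR adjusted p = 0.684), while Eln, elastin, lay within the range at 160 against 129 to 194. Ltbp4 lay below it at 877 against 1392, 991 and 1004. No member of 16 basement membrane genes lay above and 3 lay below, among them Lama3 at 110 against 141, 272 and 262 CPM. Lama3 was thus low in both libraries of the older software version. Fn1, which is on neither list, stood at 107 against 221, 203 and 215 CPM (-1.04 ± 0.19; edgeR adjusted p = 0.498). Its level in ligated arterial cells was the lowest of the 4.

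The 24 guidance cues had 4 members above and 9 below (median -0.26), with the netrin Ntn4 at 28.4 against 56.5, 69.98 and 83.9 CPM. Of the 9, Sema3g is a gate gene, counted below only after TMM scaling. Cxcl12, a chemokine of arteries and stroma, was at 2295 against 8416, 3266 and 3221 CPM, with mock 1 apart from the others. The VEGF, angiopoietin and apelin list had 5 of 18 above and 2 below (median -0.09). Aplnr was above, at 60.02 against 19.3 to 28.0 CPM, and Esm1 below. Endothelial junction genes lay above in 8 of 20 members and below in 5 (median 0.02). Of the 20, 5 are gate genes, with Pecam1 and Gja4 counted above and Cdh5 and Gja5 below. F11r, a junctional adhesion molecule, stood at 110 against 233, 243 and 226 CPM, a log2 fold change of -1.14 ± 0.19 (edgeR adjusted p = 0.445).

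The counts of 4 immune-facing lists stand beside 27.5% above and 26.8% below for all genes tested, and no joint reading is made of them. Of 18 adhesion molecules and chemokines, 9 lay above the mock libraries and 7 below (median 0.14), and of 42 interferon-stimulated genes 13 lay above and 8 below (median -0.02, and 0.27 against mock 1). MHC class I genes lay above in 7 and below in 3 of 20 (median -0.03, and 0.44 against mock 1), with the peptide transporter Tap1 at 87.5 against 59.4, 58.3 and 59.0 CPM. MHC class II genes lay above in 5 of 7 (median 1.44), and all 7 were carried by another class at over 20 times the arterial level. Cd74 among them was at 121 against 12.7, 46.9 and 28.4 CPM, beside the higher macrophage, monocyte and dendritic marker sum. The venous list had 5 of 14 above and 4 below (median 0.38, and -0.06 against mock 1).

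Of 28 immediate early and stress genes, 14 stood above all mock libraries and 3 below, with a median of 0.27 and 0.12 against mock 1. Beside Fosb, Jun was at 1221 against 799, 544 and 489 CPM, a log2 fold change of 0.96 ± 0.33 (edgeR adjusted p = 0.684), and the heat shock gene Hspa1a at 108 against 55.0, 22.1 and 21.8. Such genes also respond to tissue dissociation, whose part was not tested. Glucocorticoid-responsive genes lay above in 2 and below in 7 of 15 (median -0.32), with Sgk1 at 269 against 1060, 283 and 289 CPM. Glycolysis and hypoxia genes (5 above and 2 below of 18), cell cycle genes (5 and 4 of 16) and aryl hydrocarbon receptor targets (1 and 2 of 5) had medians of 0.13, -0.05 and -0.67, and of -0.11, 0.17 and -0.23 against mock 1.

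**Figure D3:**
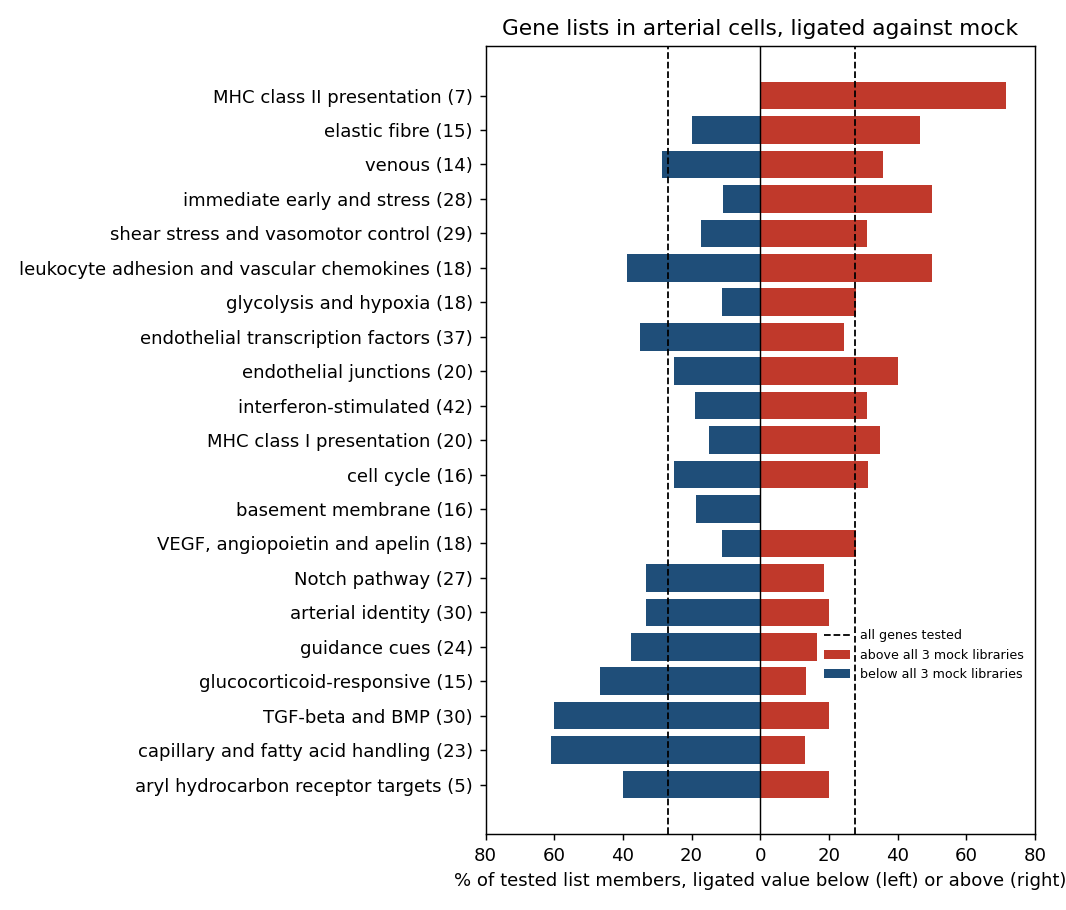
Share of tested members of 21 gene lists (number tested in brackets) whose ligated arterial level lay below (left) or above (right) all 3 mock libraries, ordered by the list's median log2 fold change. Dashed lines mark all genes tested, at 26.8 and 27.5%, and the lists furthest past the left line were TGF-beta and BMP (18 of 30) and capillary and fatty acid handling (14 of 23).

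Whether arterial cells differed from capillary-type cells in their response was asked with an interaction of cell class and surgery, the class by surgery term. Each library had a term of its own, which removes what both classes share within a library. This test, too, had a single ligated library and 2 residual degrees of freedom. Its spread came from the mock libraries alone, so its p-values do not measure how ligated glands vary. Of 13283 genes, edgeR's quasi-likelihood test called 66 higher (0.497%) and 72 lower (0.542%) in arterial cells at an adjusted p of 0.05. Higher means that the ligated level relative to mock was higher in arterial than in capillary-type cells, and of the 66, 22 stood above mock in arterial and below it in capillary-type cells, 28 below in both and 16 above in both. Of the 72, 40 stood above mock in both, 27 below in arterial and above in capillary-type cells, and 5 below in both. The 40 were thus genes whose ligated gap was wider in capillary-type cells. Of the 138 genes, 29 were carried by another class at over 20 times the arterial level, 24 of them among the lower ones. Leaving out mock 1 gave 322 higher and 306 lower calls, and leaving out mock 3 gave 45 and 68.

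Igfbp4 gave the smallest p of the term. It stood at 329 against 22.4, 28.7 and 26.7 CPM in capillary-type cells, beside 252 against 78.9 to 108 in arterial cells, a difference between the responses of -2.24 ± 0.11 on the log2 scale (edgeR adjusted p = 3.2e-09). In mock cells its level was highest, at 147 to 155 CPM, with 7 or more gate UMIs, and in the ligated library it was 214 to 329 CPM at every step, so that the arterial excess over capillary-type cells seen in the mock libraries was absent from the ligated one. A UMI was found in 49.7% of ligated capillary-type cells against 7.70 to 9.80%, in 57.1% of ligated arterial cells against 25.1 to 32.6%, and in 6.44% of ligated lymphocytes against 1.00 to 2.13%.

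Some genes of arterial identity were called by the term. Fbln5 stood at 8.21 against 1.57, 3.51 and 2.51 CPM in capillary-type cells and was level in arterial cells, a difference of -1.66 ± 0.24 (edgeR adjusted p = 0.00113). Its UMIs were in 2.69% of ligated capillary-type cells against 0.633 to 0.893% in mock, and in 1.51% of ligated lymphocytes against 0.163 to 0.638%, so that the share in lymphocytes moved with it and its part in the call was not tested. The Notch ligand Dll4 stood at 77.7 against 21.7, 47.6 and 45.8 CPM in capillary-type cells and at 119 against 81.4 to 140 in arterial cells (-0.96 ± 0.13; edgeR adjusted p = 0.000791). Jag2 and Mecom were also lower by the term (-0.55 ± 0.12 and -0.75 ± 0.12), and of the 30 members only Slc26a10 was higher (0.90 ± 0.15). For Fbln5 and Dll4 the ligated library had the highest capillary-type level of the 4, while the arterial level lay within the mock range. Cldn5, the tight junction protein of the endothelial gate, had the same pattern, at 64.6 against 7.66 to 20.2 CPM in capillary-type cells and 418 against 279 to 560 in arterial cells (-2.10 ± 0.13), and as a gate gene it is given as a description.

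The other named genes with lower arterial responses were also highest in ligated capillary-type cells. Col18a1, a basement membrane collagen, was at 38.0 against 25.3 to 48.9 CPM in arterial and 11.8 against 0.553 to 1.57 in capillary-type cells (-3.26 ± 0.32; edgeR adjusted p = 1.84e-05). Zeb2, a transcription factor, was at 52.7 against 39.0 to 60.9 and 15.7 against 2.75 to 6.23 CPM (-1.79 ± 0.25). The calcium-binding S100a4 was at 95.05 against 47.6 to 66.6 and 29.4 against 2.06 to 5.68 CPM (-2.09 ± 0.25), and Ccdc88c at 72.7 against 38.4 to 46.9 and 48.0 against 7.07 to 11.97 (-1.43 ± 0.17). The calls of Zeb2 and Ccdc88c were lost when cells were thinned to 2000 UMIs. Other classes carried these genes too: Zeb2 stood at 633 CPM in mural cells, S100a4 at 1146 in lymphocytes and Col18a1 at 139 in fibroblasts.

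Higher responses in arterial cells were led by Lmo2 (chromosome 2, 103957986 to 103981878), a transcriptional adaptor of endothelial and blood cells. It stood at 183 against 110, 112 and 113 CPM in arterial cells and at 125 against 141, 155 and 150 in capillary-type cells, opposite positions whose difference was 1.01 ± 0.11 (edgeR adjusted p = 6.8e-05). Tcf15, a factor of capillary endothelium, was at 271 against 173, 316 and 299 CPM and at 178 against 174, 454 and 436 (1.04 ± 0.15; edgeR adjusted p = 0.00113). In capillary-type cells Tcf15, too, was low in the ligated library and mock 1. The muscarinic receptor gene Chrm3 (1.65 ± 0.26) and Gm16070 (1.06 ± 0.23) stood lowest in the ligated library and mock 1 in arterial cells, the libraries of the older software version, and Gm16070 lost the call in several alternatives.

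Of 29 immediate early and stress genes, 12 were higher by the term and none lower. They were Ier3, Fosb, Hspb1, Btg2, Fos, Cdkn1a, Nr4a2, Egr1, Zfp36, Jun, Junb and Ier2. Fos stood at 796 against 527, 466 and 466 CPM in arterial cells and at 503 against 581, 505 and 455 in capillary-type cells (0.78 ± 0.11; edgeR adjusted p = 0.000748). Ier3 was at 112 against 99.5 to 106 CPM and at 81.7 against 128 to 176 (1.13 ± 0.16), and Nr4a2, which lost the call in several alternatives, differed by 1.08 ± 0.21. Hspb1 stood below all mock libraries in both classes. Klf2 was higher too, by 0.47 ± 0.10 (edgeR adjusted p = 0.0271).

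MHC class II genes were higher by the term in 4 of 7 members, Cd74, H2-Aa, H2-Eb1 and H2-Ab1, beside the macrophage, monocyte and dendritic marker sums given above. Several capillary genes stood less far below mock in arterial than in capillary-type cells. Fabp4 stood at 4582 against 14933, 11685 and 11948 CPM in capillary-type cells, and the difference of the responses was 0.69 ± 0.10 (edgeR adjusted p = 0.000791). Fabp5 (0.93 ± 0.15) and Rgcc (0.49 ± 0.11) were called likewise, with Tcf15 the fourth of 24 members and none lower. Of the 12 higher and 12 lower genes named for arterial cells, only Igfbp4 and Fosb were called by the term. Among other genes described above, it was -0.21 ± 0.16 for Esm1, -0.48 ± 0.38 for Bmp6, -0.38 ± 0.33 for Smad6 and -0.47 ± 0.20 for Hey1, with edgeR adjusted p of 0.738, 0.745, 0.776 and 0.432. These misses do not show that the classes responded alike.

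**Figure D4:**
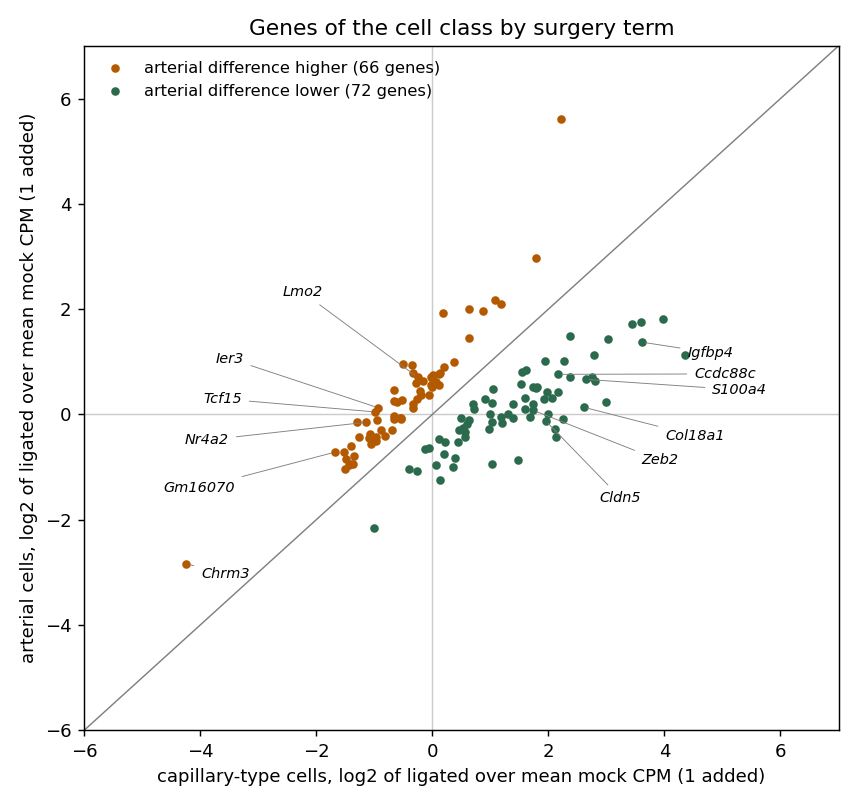
Log2 of the ligated over the mean mock CPM, 1 CPM added to each, in arterial (vertical) against capillary-type cells (horizontal) for the 138 genes called by the class by surgery term, with the grey diagonal of equal response. The 66 higher genes lie above the diagonal and the 72 lower ones below it, with Igfbp4 far to the right and Lmo2 above mock in arterial cells only.

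Cxcl9, a chemokine induced by interferon gamma, was chosen after its values were seen because it had the largest difference among the 138 called genes. Its arterial level of 51.2 against 0, 0 and 0.195 CPM came from 5 of 746 ligated cells, against 1 of 919 cells in mock 3 and none in mock 1 and 2. In capillary-type cells it was at 17.6 against 1.57 to 4.22 CPM, from 47 of 2339 cells.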

How the data were processed

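The authors deposited counts, raw UMI counts per gene and barcode in 1 sparse matrix per library, not normalized. The build was mm10 and the software Cell Ranger, in version 7.0.1 per the submitters' processing notes and in 6.0.1 or 7.0.0 per the file headers. No source used here states whether introns were counted, and several genes low in both libraries of the older version are named as such. The 30406 gene IDs present in all 4 feature lists were joined by ID. They held 99.5 to 99.9% of the UMIs.

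Cells were chosen by the gates given in the report, with no clustering and no doublet caller. UMIs were summed per library and class, and compared with edgeR 4.0.16 in R 4.3.3 (quasi-likelihood F test, TMM, filterByExpr, Benjamini-Hochberg over all genes tested). The alternative count test was DESeq2 1.42.0. CPM are plain shares of the summed UMIs, and positions against the mock range were read after TMM scaling. Ratios between classes had 10 CPM added. Gene coordinates are those of GENCODE M21 on GRCm38.

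Members, gene lists, markers and the rule for named genes were chosen with earlier results of these data known. Genes are named if they are gate genes or arterial markers, or lead the arterial over capillary-type ratios (12 genes). From each list up to 4 leading genes outside the mock range with a mean of at least 30 CPM are named. For ligated against mock, the 12 genes in each direction with the smallest p are named. These had a log2 fold change of at least 1, a ligated level outside the mock range and a mean of at least 30 CPM. No other class carried them at over 20 times the level. The 6 genes in each direction of the class by surgery term, again with the smallest p, met the same conditions. Their range was read on the difference between the classes. Other genes serve to say what a list does. On simulated counts for these genes and library sizes the fits were tested before use.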

Additional observations from a re-analysis of the deposited data

Results flagged for a closer look

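For 12 genes the response to ligation differed between arterial and capillary-type cells by edgeR's quasi-likelihood test of the class by surgery term, at an adjusted p under 0.05. The log2 difference was higher in arterial cells for Lmo2 (1.01), Ier3 (1.13), Tcf15 (1.04), Chrm3 (1.65), Nr4a2 (1.08) and Gm16070 (1.06). It was lower for Igfbp4 (-2.24), Cldn5 (-2.10), Col18a1 (-3.26), Ccdc88c (-1.43), S100a4 (-2.09) and Zeb2 (-1.79). Cldn5 belongs to the endothelial gate, so its value is a description. Nr4a2 and Gm16070 lost the call under several alternatives, and Ccdc88c and Zeb2 lost it when cells were thinned to 2000 UMIs. Without the cells that carried transcripts of another cell type, the calls of Nr4a2 and Gm16070 were also lost and the other 10 kept their call and direction.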

How the results depend on the processing

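Of 84 tested genes named for the ligated against mock comparison, 79 kept their sign in all 14 alternatives. The sign turned with a term for the Cell Ranger version for Mecom (0.10), Fbln5 (0.0075) and Stmn2 (0.11), after thinning to 2000 UMIs for Fbln5 (0.0787), Stmn2 (0.0692) and Mfap2 (-0.14), and without cells carrying another cell type's transcripts for Hbb-bt (0.46), as log2 fold changes. The count of genes passing, 0 higher and 0 lower by edgeR, was 35 and 29 by DESeq2, 6 and 0 without the low-count filter and after thinning, and 905 and 1019 with the version term. Leaving out 1 mock library gave 0 to 2026 higher and 0 to 2471 lower, the upper values without mock 1, whose spread rests on mock 2 against mock 3 alone. For the class by surgery term, 66 higher and 72 lower became 19 and 27 by DESeq2, 191 and 172 without the filter, 239 and 212 with the version term, and 33 and 47 after thinning. They became 31 higher without mural-marked cells, 41 higher without the top 5% of UMIs, 22 and 33 with the gate at 5 UMIs, and 44 lower without cells marked by another type. Leaving out 1 mock library gave 45 to 322 higher and 68 to 306 lower. The ratio of the arterial share, 1.46, was 1.30 with the gate at 1 UMI and 1.61 after thinning, and 1.40 to 1.58 without 1 mock library. The cause of these shifts was not tested. With the version term, mock 1 is the only mock library of the ligated library's version. Both fits then set the ligated library against mock 1 alone. Their spread comes from mock 2 against mock 3, with 1 residual degree of freedom, so these counts do not show more changed genes. The gate at 5 UMIs and the removal of marked cells were chosen after seeing the data. Depth limits genes of few UMIs, and a single ligated library leaves the spread of ligated glands unmeasured. No paired analysis was possible because the groups share only 1 replicate number, which pairs nothing in the labels.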
